A study of Mus musculus with 9 samples.

Results

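The collagen and laminin genes encode the fibres and sheets of the extracellular matrix. They were taken from the expression table by symbol, as every gene named Col or Lama, Lamb or Lamc with its chain numbers, which gave 55 genes, 44 collagens and 11 laminins, among 38195 gene symbols. Expression had been measured by RNA-seq in the hypothalamus of outbred CD-1 mouse embryos at E12.5, in mid-gestation, with the stated aim of finding genes specific to a region. The ventricular zone (VZ), which lines the ventricle and holds dividing progenitors, was compared with the medial mantle zone (mMZ) and the lateral mantle zone (lMZ), where young neurons settle. Each zone was microdissected from vibratome slices and is represented by 3 libraries. All libraries come from the same strain, stage and brain region, the labels name no genotype or treatment, and they do not say which embryos or litters gave which library. The p-values below rest on the spread among these 9 libraries, which may be technical in part.

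Fibrillar collagens assemble into banded fibrils. Collagens I, III and V are the usual fibrils of connective tissue, including the meninges around the brain, and collagens II and XI are best known from cartilage and the notochord. Collagen IV and the laminins form basement membranes, which in the embryonic brain lie under the pial surface, where the end feet of radial glia attach, and around growing blood vessels. A laminin is built of an alpha, a beta and a gamma chain, and collagen IV is secreted as a triple helix made mostly of its alpha1 and alpha2 chains, with the alpha3 to alpha6 chains in particular tissues. FACIT collagens attach to the surface of fibrils, and multiplexins lie in basement membranes.

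The deposited values were FPKM, fragments scaled to transcript length and library size, a scale that allows levels to be compared between genes. Differences below are on the log2(FPKM + 1) scale, with the standard error (SE) and the Benjamini-Hochberg adjusted p-value of limma over all 14004 genes that reached 1 FPKM in at least 3 of the 9 libraries. A difference with an adjusted p under 0.05 was taken as past the threshold. Of the 55 genes, 29 were tested and 26 were not, and no untested gene exceeded 1.66 FPKM in any library. Just inside the filter lay Lama5, Col27a1 and Col20a1, with the third highest library at 1.09, 1.33 and 1.39 FPKM. Just outside it lay Col4a6, Col6a2 and Col6a4, at 0.968, 0.881 and 0.872 FPKM. Of the tested genes, Col12a1 alone reached 1 FPKM in libraries of only 1 zone.

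The depth implied by the smallest steps between values was 4419532 to 8808484 fragments in 7 libraries. VZ replicate 3 held only 261321 and mMZ replicate 3 only 539200 fragments, 24.8 and 12 times fewer than the median library. On a 6 kb transcript, a usual length for a collagen, 1 fragment was worth 0.638 FPKM in VZ replicate 3, 0.309 in mMZ replicate 3 and at most 0.0377 in the others. Low values and listed zeros in these 2 libraries therefore carry little information. Their genes also scattered most about the zone mean, with a root mean square of 0.755 (log2) in VZ replicate 3 and 0.552 in mMZ replicate 3, against 0.269 to 0.532 elsewhere. Radial glia genes, which mark progenitors, summed to 967 to 2077 FPKM in the VZ, 935 to 1123 in the mMZ and 87.5 to 123 in the lMZ. Of these 10 genes, 9 passed the threshold as higher in VZ than lMZ (10.7% of all tested genes) and in mMZ than lMZ (3.58%). Neuronal genes summed to 581 to 1345 FPKM in the VZ, 1293 to 1513 in the mMZ and 1807 to 2064 in the lMZ. The 11 hypothalamic identity genes, among them Otp, Rax and Nkx2-2, were all tested and summed to 285 to 446 FPKM in the VZ, 568 to 715 FPKM in the mMZ and 248 to 619 FPKM in the lMZ.

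The summed level of the matrix genes was highest in the VZ. It was 297, 224 and 359 FPKM in VZ replicates 1, 2 and 3, 185, 186 and 121 FPKM in the mMZ and 133, 117 and 168 FPKM in the lMZ. All 3 VZ libraries lay above all others, and the mMZ and lMZ libraries overlapped. In the VZ 15 genes averaged at least 5 FPKM, against 11 in the mMZ and 6 in the lMZ. Much of the VZ sum came from Col2a1, which made up 38.2%, 19.1% and 51.9% of it in the 3 VZ libraries, 9.04%, 16.8% and 11.7% in the mMZ and 0.997%, 2.15% and 2.25% in the lMZ. The tested genes as a group were not higher in the VZ than the lMZ, with a median difference of -0.07 over 29 genes.

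**Figure D1:**
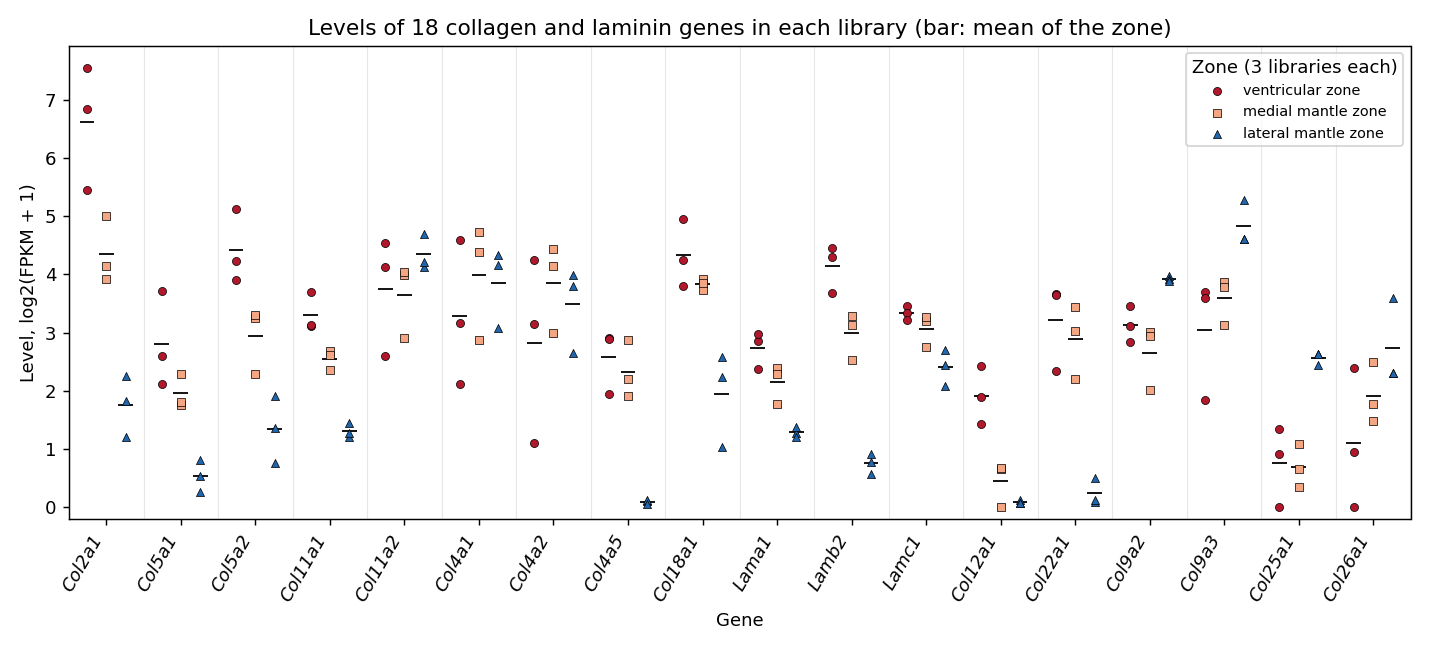
Level of 18 collagen and laminin genes in each library, as log2(FPKM + 1), for the genes that averaged at least 5 FPKM in a zone or passed the threshold in a comparison. Points are libraries, 3 per zone in the order VZ, mMZ and lMZ, and bars are zone means. Col2a1 was the highest VZ value, at 186 FPKM in replicate 3, while Col9a3 and Col25a1 were highest in the lMZ.

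Between the VZ and the lMZ, 11 of the 29 tested genes were higher in the VZ and 2 were lower, while of all tested genes 19.6% passed, 10.7% as higher and 8.93% as lower. Of the 11, Col12a1 passed the filter only through its VZ libraries. Between the mMZ and the lMZ, 6 were higher in the mMZ (3.58% of all tested genes) and 1 was lower (0.543%). Between the VZ and the mMZ, limma called 0 of the 29, as it did 0 of all 14004 genes (0% in each direction). In that comparison 6 of the 29 genes, 5 higher and 1 lower in the VZ, had an unadjusted limma p under 0.05, as did 1661 of all 14004 genes. The lowest adjusted p of any gene there was 0.0624. The median difference over the 29 genes was 0.20 for VZ minus mMZ, -0.07 for VZ minus lMZ and 0.14 for mMZ minus lMZ, beside -0.05, 0.05 and 0.10 over all tested genes. The genes thus moved in both directions, and the higher ones moved further: differences ran from -1.81 to 4.85 for VZ minus lMZ. In bulk tissue, fewer cells of a type and less RNA per cell cannot be told apart. The radial glia genes were high in the zones where most of the called matrix genes were high, and the part of progenitor content in these differences was not tested.

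**Figure D2:**
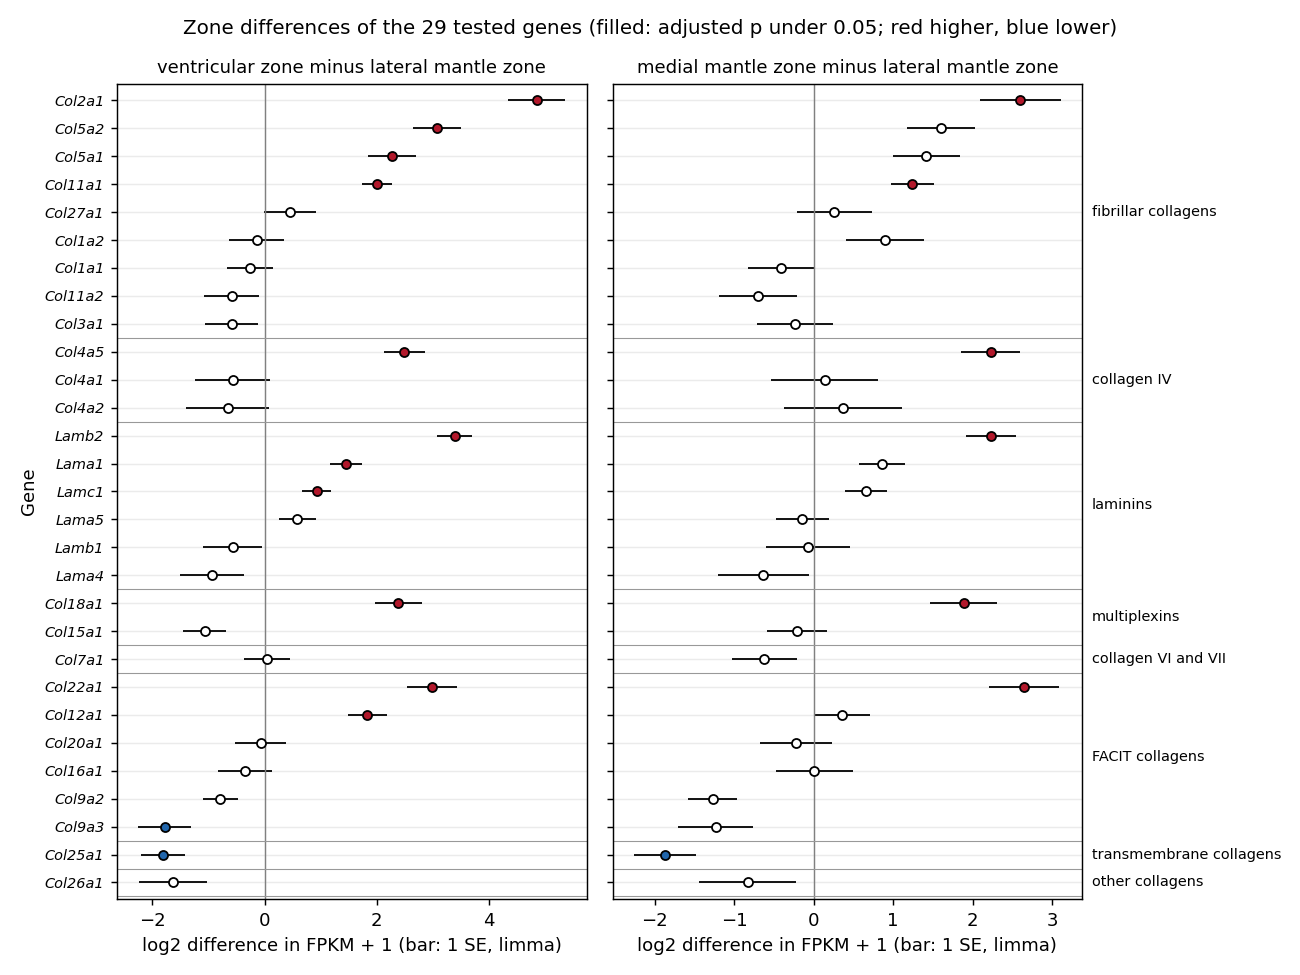
Difference of each of the 29 tested genes between the VZ and the lMZ (left) and between the mMZ and the lMZ (right), in log2(FPKM + 1), grouped by class. Bars are 1 SE from limma, filled points have an adjusted p under 0.05, and red is higher and blue lower. Col2a1 lies farthest right on the left panel, at 4.85, and Col25a1 farthest left on both, at -1.81 and -1.87.

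Among the 11 fibrillar collagens, 9 were tested, 4 were higher in the VZ than in the lMZ (10.7% of all tested genes) and 0 were lower (8.93%). The largest difference was that of Col2a1, the chain of collagen II, the main collagen of cartilage (chr15:97975602-98004695, minus strand). Col2a1 had 113, 42.8 and 186 FPKM in the VZ libraries, 16.7, 31.2 and 14.1 FPKM in the mMZ libraries and 1.32, 2.53 and 3.77 FPKM in the lMZ libraries. The zones did not overlap, although VZ replicate 2 lay closer to the highest mMZ library than to the other VZ libraries. Col2a1 was 4.85 ± 0.51 higher in VZ than lMZ (SE, adjusted p = 0.000737) and 2.60 ± 0.51 higher in mMZ than lMZ (adjusted p = 0.0227). VZ minus mMZ was 2.25 ± 0.51 (adjusted p = 0.311).

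The other fibrillar genes that were higher in the VZ than the lMZ were Col5a1 and Col5a2, whose collagen V sets the diameter of collagen I fibrils, and Col11a1, whose collagen XI does the same for collagen II. Col5a2 had 17.8, 13.9 and 33.8 FPKM in the VZ, 8.49, 8.82 and 3.87 FPKM in the mMZ and 2.75, 0.701 and 1.56 FPKM in the lMZ. Col5a1 was lower throughout, with 5.03, 3.34 and 12.1 FPKM in the VZ, 2.38, 2.52 and 3.91 FPKM in the mMZ and 0.765, 0.194 and 0.457 FPKM in the lMZ. In both genes all lMZ libraries lay below all others, and VZ replicate 3 was the highest. The difference between VZ and lMZ was 3.07 ± 0.43 for Col5a2 and 2.27 ± 0.42 for Col5a1 (SE, adjusted p = 0.00231 and 0.00728). Between mMZ and lMZ both missed the threshold, at 1.60 ± 0.43 and 1.42 ± 0.42 (adjusted p = 0.0757 and 0.097), and both passed it without VZ replicate 3 (adjusted p = 0.0266 and 0.0154). Col11a1 had 7.64, 7.76 and 11.9 FPKM in the VZ, 4.1, 5.41 and 5.1 FPKM in the mMZ and 1.3, 1.72 and 1.42 FPKM in the lMZ. Its zones did not overlap, and it was 2.0 ± 0.27 higher in VZ than lMZ and 1.24 ± 0.27 higher in mMZ than lMZ (SE, adjusted p = 0.00189 and 0.0352).

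Col11a2, which encodes a second chain of collagen XI, did not follow Col11a1. It had 22.2, 16.4 and 5.08 FPKM in the VZ, 14.9, 15.5 and 6.51 FPKM in the mMZ and 16.5, 24.8 and 17.6 FPKM in the lMZ. The 2 shallow libraries held the lowest values, and VZ minus lMZ was -0.59 ± 0.49 (SE, adjusted p = 0.416). Col1a1, Col1a2 and Col3a1, the chains of collagens I and III, were low in every zone and passed the threshold in no comparison. Their summed level was 2.93, 4.4 and 0.621 FPKM in the VZ, 5.69, 3.95 and 5.42 FPKM in the mMZ and 4.1, 1.56 and 6.33 FPKM in the lMZ. The zones overlapped, and the lowest library was the shallow VZ replicate 3. In that library Col1a2 and Col3a1 were listed at 0, as was Col1a1 in mMZ replicate 3.

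In the grouping behind this choice of genes, the fibrillar collagens stood for meninges and the basement membrane genes for vessels. Of the 14 listed meningeal markers found in the table, 13 averaged under 1 FPKM over the 9 libraries, and 9 of the 14, among them Tbx18, Twist1, Aldh1a2 and Slc6a13, were at 0 in at least 3 libraries. The list summed to 12.8 to 34.3 FPKM in the VZ, 28.6 to 79.3 FPKM in the mMZ and 5.44 to 14.2 FPKM in the lMZ, most of it Crabp2, a retinoic acid binding protein also found in neural cells. Of the 3 that could be tested, Prrx1, a mesenchymal homeobox factor, was higher in VZ than lMZ, with 1.76, 1.45 and 2.25 FPKM in the VZ, 0.207, 0.133 and 0 FPKM in the mMZ and 0.172, 0.0278 and 0.0765 FPKM in the lMZ (difference 1.36 ± 0.27 SE, adjusted p = 0.0105). Of all tested genes 10.7% were higher in that comparison. Prrx1 passed the filter only through its VZ libraries, so its test is not independent of the zone in which it was high. Crabp2 was higher in mMZ than lMZ, as were 3.58% of all tested genes, by 2.35 ± 0.52 (SE, adjusted p = 0.037). It had 28.5, 30.9 and 9.4 FPKM in the VZ, 24.5, 30.5 and 76.9 FPKM in the mMZ and 6.71, 4.54 and 9.96 FPKM in the lMZ. Markers of cartilage and notochord were also low, with 9 of 10 averaging under 1 FPKM and 2 at 0 in all libraries. The exception was Shh, a signalling protein of the notochord and of the ventral hypothalamus itself, which had 29, 10.8 and 99.3 FPKM in the VZ, 17.1, 17.7 and 7.57 FPKM in the mMZ and 1.91, 1.53 and 1.66 FPKM in the lMZ. Col2a1, Col5a2 and Shh were all highest in VZ replicate 3 and all lowest in the lMZ libraries. The part of these cell types in the fibrillar result was not tested.

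Collagen IV divided into gene pairs that lie head to head on a chromosome and are read in opposite directions. The promoters of both pairs are shown because Col4a1 and Col4a2 followed each other across the libraries and Col4a5 and Col4a6 were both lowest in the lMZ. Each window runs from 250 bases before to 50 bases after the start site and is given 5′ to 3′ on the strand of its gene, from RefSeq on GRCm38.p6. Capitals mark CCAAT (or its reverse complement ATTGG) and the GC box GGGCGG (or CCGCCC). The windows are chr8:11312777-11313076 (minus strand) for Col4a1, chr8:11312555-11312854 (plus) for Col4a2, chrX:141475169-141475468 (plus) for Col4a5 and chrX:141474027-141474326 (minus) for Col4a6.
Col4a1: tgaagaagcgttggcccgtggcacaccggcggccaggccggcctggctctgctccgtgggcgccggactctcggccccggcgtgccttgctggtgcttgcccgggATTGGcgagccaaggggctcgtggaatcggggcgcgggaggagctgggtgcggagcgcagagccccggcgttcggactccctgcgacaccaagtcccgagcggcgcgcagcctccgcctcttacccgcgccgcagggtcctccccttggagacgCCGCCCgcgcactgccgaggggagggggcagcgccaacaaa
Col4a2: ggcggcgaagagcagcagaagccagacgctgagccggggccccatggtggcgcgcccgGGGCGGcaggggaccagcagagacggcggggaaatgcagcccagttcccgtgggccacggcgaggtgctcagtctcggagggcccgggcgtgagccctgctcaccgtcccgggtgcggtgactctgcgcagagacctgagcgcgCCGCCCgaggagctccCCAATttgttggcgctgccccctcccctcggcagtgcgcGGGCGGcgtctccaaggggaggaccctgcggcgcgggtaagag
Col4a5: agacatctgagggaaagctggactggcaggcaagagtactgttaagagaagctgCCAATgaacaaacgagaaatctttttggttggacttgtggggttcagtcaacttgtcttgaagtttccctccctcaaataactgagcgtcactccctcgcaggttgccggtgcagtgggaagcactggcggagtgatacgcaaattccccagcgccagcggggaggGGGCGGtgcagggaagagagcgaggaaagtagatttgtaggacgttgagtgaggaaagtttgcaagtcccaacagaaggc
Col4a6: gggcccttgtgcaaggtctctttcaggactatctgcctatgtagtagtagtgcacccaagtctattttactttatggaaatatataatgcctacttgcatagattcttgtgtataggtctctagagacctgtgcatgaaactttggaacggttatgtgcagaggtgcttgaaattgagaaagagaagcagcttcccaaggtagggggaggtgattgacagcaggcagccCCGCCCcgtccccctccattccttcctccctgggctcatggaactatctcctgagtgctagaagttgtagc

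The start sites of Col4a1 and Col4a2 are 21 bp apart, so that their windows share 78 bp, whereas those of Col4a5 and Col4a6 are 1343 bp apart, with 842 bp between the windows. CCAAT occurred 1 time in the window of Col4a1, 1 time in that of Col4a2, 1 time in that of Col4a5 and 0 times in that of Col4a6, and it occurs in 37.4% of the 32851 promoters of the same length. The GC box occurred 1, 3, 1 and 1 times in the same order, and it occurs in 35.7% of promoters. The match of Col4a1 and the last of the 3 of Col4a2 are the same site, read on opposite strands, in the 78 bp that the windows share. Neither TATAAA nor ACAAT, the core letters bound by SOX factors, was present in these windows on either strand, beside 13.6% and 31% of all promoters. Over the 40 collagen and laminin genes with a RefSeq promoter, CCAAT occurred in 14, the GC box in 25, TATAAA in 5 and ACAAT in 3. These are matches of letters and not binding sites.

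Col4a1 and Col4a2, the common chains of vascular basement membrane, did not separate the zones. Col4a1 had 7.93, 23.1 and 3.33 FPKM in the VZ, 25.6, 19.9 and 6.29 FPKM in the mMZ and 16.9, 7.46 and 19.1 FPKM in the lMZ. Col4a2 had 7.84, 18 and 1.14 FPKM in the VZ, 20.7, 16.6 and 6.92 FPKM in the mMZ and 13, 5.3 and 14.9 FPKM in the lMZ. Libraries of a zone differed by several fold and the zones overlapped, with VZ replicate 3 lowest and mMZ replicate 1 highest in both genes. For VZ minus lMZ the difference was -0.57 ± 0.67 for Col4a1 and -0.66 ± 0.74 for Col4a2 (SE, adjusted p = 0.566 and 0.548). The log2 ratio of Col4a1 to Col4a2 was 0.01, 0.36 and 1.55 in the VZ, 0.30, 0.27 and -0.14 in the mMZ and 0.37, 0.49 and 0.35 in the lMZ. The value farthest from the others was that of the shallow VZ replicate 3.

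The endothelial markers varied between libraries in the same way. The 15 genes, among them Cldn5, Kdr and Egfl7, summed to 35.4, 84.2 and 10.9 FPKM in the VZ, 100, 69.1 and 33.4 FPKM in the mMZ and 67.4, 23.7 and 71.7 FPKM in the lMZ. All 15 were tested and 0 passed the threshold in any of the 3 comparisons. Of all tested genes 0% passed for VZ minus mMZ, 19.6% for VZ minus lMZ and 4.12% for mMZ minus lMZ. Ranked from low to high, 7 of the 9 libraries held the same place in Col4a2 as in the endothelial sum, and 5 of 9 in Col4a1. This is a description over 9 libraries that share their depth and dissection with both measures, and the part of vessel content in the collagen IV values was not tested.

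Col4a5 and Col4a6, which form the collagen IV of other basement membranes, were both lowest in the lMZ. Col4a5 (chrX:141475385-141689234, plus strand) had 6.47, 2.85 and 6.43 FPKM in the VZ, 3.62, 2.77 and 6.29 FPKM in the mMZ and 0.0825, 0.0871 and 0.0342 FPKM in the lMZ. It was 2.49 ± 0.37 higher in VZ than lMZ and 2.23 ± 0.37 higher in mMZ than lMZ (SE, adjusted p = 0.00289 and 0.00986). VZ and mMZ overlapped, and their difference was 0.25 ± 0.37 (adjusted p = 0.797). Each lMZ value was worth only a few fragments at this gene's length. Without lMZ replicate 2 the adjusted p for mMZ minus lMZ was 0.0511. Col4a6 stood just below the filter and is named here after its values were seen. It had 1.57, 0.968 and 1.22 FPKM in the VZ and 0.664, 0.423 and 0.537 FPKM in the mMZ, and it was listed at 0 in all 3 lMZ libraries. Col4a3 and Col4a4, the other chains of this family, were not tested and were at 0 in at least 3 libraries each.

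**Figure D3:**
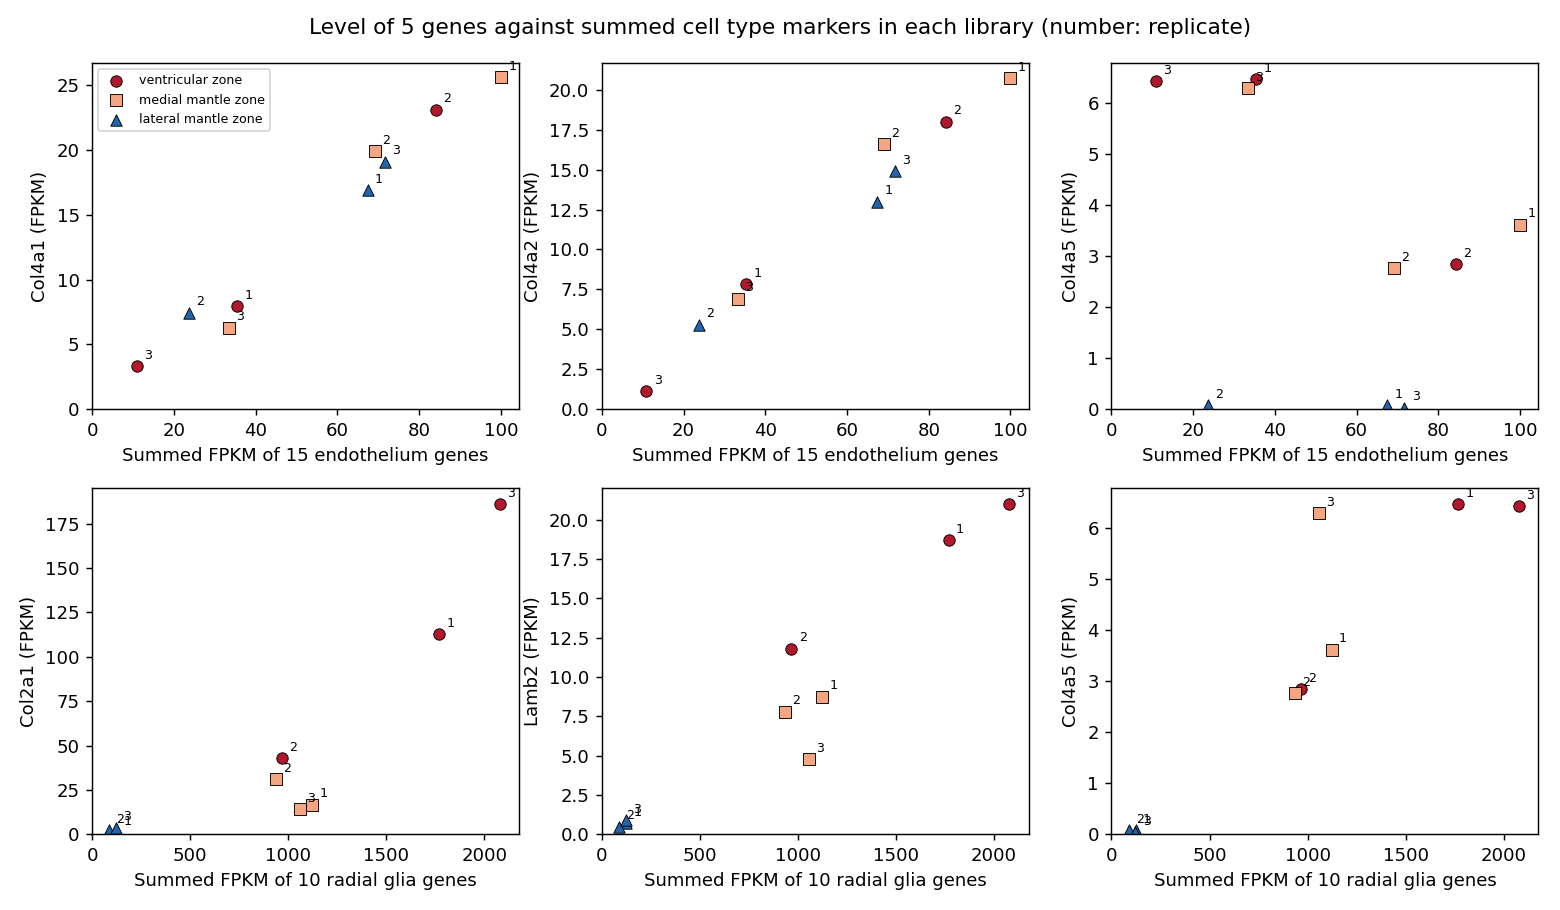
Level of Col4a1, Col4a2, Col4a5, Col2a1 and Lamb2 (FPKM, vertical axes) against the summed level of 15 endothelial genes (upper row) or of 10 radial glia genes (lower row) in each library. Points are libraries, numbered by replicate, with zones by shape and colour. Col4a1 and Col4a2 run with the endothelial sum, highest in mMZ replicate 1 at 25.6 and 20.7 FPKM, whereas Col4a5, Col2a1 and Lamb2 are low in the 3 lMZ libraries, where the radial glia sum is 87.5 to 123 FPKM.

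Of the 6 tested laminin genes, 3 were higher in VZ than lMZ (10.7% of all tested genes) and 0 were lower (8.93%). Lamb2, which encodes the beta2 chain of pial and vascular basement membranes (chr9:108479736-108490530, plus strand), changed most. It had 18.7, 11.8 and 21 FPKM in the VZ, 8.75, 7.8 and 4.78 FPKM in the mMZ and 0.708, 0.488 and 0.882 FPKM in the lMZ. The 3 zones did not overlap. Lamb2 was 3.39 ± 0.31 higher in VZ than lMZ and 2.23 ± 0.31 higher in mMZ than lMZ (SE, adjusted p = 0.000446 and 0.00543), and VZ minus mMZ was 1.16 ± 0.31 (adjusted p = 0.361).

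Lamb1, the beta1 chain, showed no such order. It had 1.49, 4.19 and 0 FPKM in the VZ, 2.52, 2.08 and 2.4 FPKM in the mMZ and 2.36, 1.66 and 3.76 FPKM in the lMZ, and VZ minus lMZ was -0.57 ± 0.53 (SE, adjusted p = 0.467). Lamb2 thus made up 92.6%, 73.8% and 100% of the summed Lamb1 and Lamb2 level in the VZ, 77.6%, 78.9% and 66.6% in the mMZ and 23.1%, 22.7% and 19% in the lMZ. The value of 100% comes from the shallow VZ replicate 3, in which Lamb1 was listed at 0. The 3 lMZ libraries lay far below the other 6, in which Lamb2 was the main beta chain.

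Lama1, the alpha1 chain of early embryonic and pial basement membranes, had 6.24, 4.19 and 6.89 FPKM in the VZ, 4.22, 3.9 and 2.42 FPKM in the mMZ and 1.42, 1.61 and 1.3 FPKM in the lMZ. It was 1.45 ± 0.29 higher in VZ than lMZ (SE, adjusted p = 0.0109). Without lMZ replicate 1 the adjusted p rounded to 0.05 and no longer passed. Lamc1, the gamma1 chain that most laminins share, had 9.99, 9.12 and 8.31 FPKM in the VZ, 8.18, 5.71 and 8.59 FPKM in the mMZ and 4.44, 3.23 and 5.53 FPKM in the lMZ. VZ was above lMZ by 0.93 ± 0.26 (SE, adjusted p = 0.0361). That call was lost without VZ replicate 1 (0.101), without mMZ replicate 1 (0.0604), and without lMZ replicate 1, 2 or 3 (0.107, 0.136 and 0.0596). Lama4 and Lama5, the alpha chains of vascular basement membranes, passed no threshold. Lama4 had 1.29, 2.9 and 0 FPKM in the VZ, 2.49, 1.79 and 0.722 FPKM in the mMZ and 2.32, 1.52 and 6.42 FPKM in the lMZ. Lama5 had 1.09, 2.23 and 1.28 FPKM in the VZ, 0.459, 1.05 and 0.155 FPKM in the mMZ and 0.43, 0.862 and 0.743 FPKM in the lMZ. The beta chains together summed to 19.1 ± 2.61 FPKM in the VZ, 9.71 ± 2.34 in the mMZ and 3.95 ± 1.17 in the lMZ, and the alpha chains to 8.9 ± 0.66 FPKM in the VZ, 6.15 ± 2.49 in the mMZ and 5.81 ± 2.53 in the lMZ (SD, n = 3 each).

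The multiplexin Col18a1, a collagen of basement membranes whose end fragment is endostatin, was higher in the VZ and in the mMZ than in the lMZ. It had 17.9, 12.9 and 30 FPKM in the VZ, 12.3, 14.2 and 13.5 FPKM in the mMZ and 3.69, 1.06 and 5.01 FPKM in the lMZ. VZ and mMZ overlapped, while all lMZ libraries lay below both. The differences were 2.38 ± 0.42 for VZ minus lMZ and 1.89 ± 0.42 for mMZ minus lMZ (SE, adjusted p = 0.00592 and 0.037). Col15a1, the other multiplexin, reached at most 3.17 FPKM and passed no threshold, with VZ minus lMZ at -1.07 ± 0.38 (SE, adjusted p = 0.0782).

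FACIT collagens went both ways. Col22a1, known from tissue junctions such as that of muscle and tendon, had 11.7, 4.08 and 11.5 FPKM in the VZ, 3.6, 7.2 and 9.87 FPKM in the mMZ and 0.0638, 0.0925 and 0.423 FPKM in the lMZ. It was 2.98 ± 0.44 higher in VZ than lMZ and 2.65 ± 0.44 higher in mMZ than lMZ (SE, adjusted p = 0.00305 and 0.0109), and VZ and mMZ overlapped. Col12a1, a partner of collagen I fibrils, was low outside the VZ, with 2.72, 1.69 and 4.38 FPKM in the VZ, 0.586, 0.595 and 0 FPKM in the mMZ and 0.087, 0.0498 and 0.0522 FPKM in the lMZ. All VZ libraries lay above all others, and VZ was 1.83 ± 0.35 above lMZ (SE, adjusted p = 0.00828). Col12a1 passed the filter only through its 3 VZ libraries, so this test is not independent of the zone in which it was high.

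Genes with their highest mean in the lMZ included Col9a3 and Col9a2, chains of collagen IX, which coats collagen II fibrils in cartilage. They also included Col25a1, a transmembrane collagen of neurons. Col9a3 had 12, 11.1 and 2.59 FPKM in the VZ, 13.6, 12.8 and 7.8 FPKM in the mMZ and 23.5, 23.3 and 37.6 FPKM in the lMZ. Its mean was the highest of the collagens in that zone. VZ minus lMZ was -1.78 ± 0.47 (SE, adjusted p = 0.0286), a call lost without lMZ replicate 1, 2 or 3 (adjusted p = 0.0761, 0.0737 and 0.1). Of the exon bases of Col9a3, 6.07% also belong to Tcfl5 on the opposite strand, and the sources used here do not say whether reads were counted by strand. Col9a2 had 7.62, 10 and 6.15 FPKM in the VZ, 7.04, 6.65 and 3.04 FPKM in the mMZ and 14.7, 14.1 and 13.7 FPKM in the lMZ. All lMZ values lay above all others, yet neither VZ minus lMZ, at -0.79 ± 0.31, nor mMZ minus lMZ, at -1.27 ± 0.31, passed the threshold (SE, adjusted p = 0.0989 and 0.0509). The VZ minus lMZ difference passed without mMZ replicate 3 (adjusted p = 0.0364). For mMZ minus lMZ the difference passed without VZ replicate 2 or 3 (adjusted p = 0.0422 and 0.0221).

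Col25a1 had 0.894, 1.55 and 0 FPKM in the VZ, 1.12, 0.58 and 0.266 FPKM in the mMZ and 4.43, 5.19 and 5.19 FPKM in the lMZ. The lMZ libraries lay above all others, and the difference was -1.81 ± 0.39 for VZ minus lMZ and -1.87 ± 0.39 for mMZ minus lMZ (SE, adjusted p = 0.0135 and 0.0273). The VZ minus lMZ call was lost without lMZ replicate 2 or 3 (adjusted p = 0.0565 and 0.0505). Col26a1, a small secreted collagen, had 0.926, 4.24 and 0 FPKM in the VZ, 1.79, 2.43 and 4.61 FPKM in the mMZ and 3.97, 3.97 and 11.1 FPKM in the lMZ. Its zones overlapped and VZ minus lMZ was -1.63 ± 0.61 (SE, adjusted p = 0.0876, and 0.0133 without VZ replicate 2). In Col9a2, Col9a3 and Col25a1 the 2 lowest values were those of the shallow libraries, which the fit weighs like any other.

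The calls between VZ and lMZ were steadier than those between mMZ and lMZ. 8 genes (Col2a1, Col5a1, Col5a2, Col11a1, Col18a1, Col22a1, Col4a5 and Lamb2) were higher in the VZ than the lMZ under all 21 alternative settings. Col12a1 was so in each setting that tested it. It met the filter only through its VZ libraries, and the filter of 6 libraries dropped it, so these calls are not independent of the filter. Between mMZ and lMZ, Lamb2 alone passed in all 9 fits that each left out 1 library. Col4a5 passed in 8 of them, Col22a1 in 6, Col2a1 in 4, Col18a1 and Col25a1 in 3 each and Col11a1 in 2. The share of all tested genes that passed under all 21 settings, or in all 9 of these fits, was not computed. Whether the matrix genes were steadier than other genes therefore cannot be said. Without lMZ replicate 2 only Lamb2 was higher, as were 1.35% of all tested genes, and without VZ replicate 3 there were 8 genes higher (9.48% of all tested genes) and 3 lower (3.08%). The highest adjusted p among these fits was 0.0577 for Col22a1, 0.102 for Col2a1, 0.119 for Col18a1, 0.121 for Col25a1 and 0.148 for Col11a1. With both shallow libraries left out, 12 genes were higher and 3 lower in VZ than lMZ, beside 15.7% and 12.4% of all tested genes. In that fit 9 were higher and 3 lower in mMZ than lMZ, beside 9.29% and 2.61% of all tested genes. For VZ minus mMZ, 3 genes were higher without VZ replicate 2, Col2a1 (adjusted p = 0.0125), Col12a1 (0.0387) and Lamb2 (0.0487), as were 0.707% of all tested genes. When libraries were weighted by their noise, 7 were higher and 1 lower in VZ than mMZ, beside 5.56% and 14.2% of all tested genes. Without overlap between libraries, 6 of the 29 were higher in VZ than mMZ (5.36% of all tested genes) and 1 was lower (9.3%).

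The fibrillar genes were then set against the basement membrane genes library by library. The fibrillar side was the sum of Col1a1, Col1a2, Col3a1, Col5a1 and Col5a2, and the basement membrane side that of Col4a1, Col4a2, Lama4, Lama5, Lamb1, Lamb2 and Lamc1. The fibrillar sum was 25.8, 21.6 and 46.5 FPKM in the VZ, 16.6, 15.3 and 13.2 FPKM in the mMZ and 7.61, 2.46 and 8.34 FPKM in the lMZ, without overlap between zones. The basement membrane sum was 48.3, 71.4 and 35.1 FPKM in the VZ, 68.7, 54.9 and 29.9 FPKM in the mMZ and 40.2, 20.5 and 51.3 FPKM in the lMZ, and there the zones overlapped. Basement membrane genes were the larger side in all libraries except VZ replicate 3.

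The log2 ratio of the fibrillar to the basement membrane sum was -0.91, -1.72 and 0.41 in the VZ, -2.05, -1.84 and -1.18 in the mMZ and -2.40, -3.06 and -2.62 in the lMZ. Its mean was -0.74 ± 1.07 in the VZ, -1.69 ± 0.46 in the mMZ and -2.69 ± 0.34 in the lMZ (SD, n = 3 each). All lMZ libraries lay below the others, and VZ and mMZ overlapped. Without VZ replicate 3 the VZ mean was -1.31. The order depended on summing the levels and on which fibrillar genes were counted. As a difference of medians of log2(FPKM + 1) over the same genes, the mean was -1.40 ± 0.80 in the VZ, -1.06 ± 0.70 in the mMZ and -0.84 ± 0.34 in the lMZ. There the VZ was the lowest and the zones overlapped. With Col1a1, Col1a2 and Col3a1 alone the ratio averaged -4.63 ± 1.03 in the VZ, -3.28 ± 0.72 in the mMZ and -3.34 ± 0.35 in the lMZ, so that the VZ was the lowest and Col5a1 and Col5a2 carried the fibrillar gradient. With the whole fibrillar and basement membrane classes, Col2a1 included, it averaged 0.89 ± 0.87 in the VZ, -0.49 ± 0.30 in the mMZ and -0.50 ± 0.64 in the lMZ. In that version VZ replicate 2, at -0.05, lay below lMZ replicate 2, at 0.24, so VZ and lMZ overlapped, as did mMZ and lMZ.

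**Figure D4:**
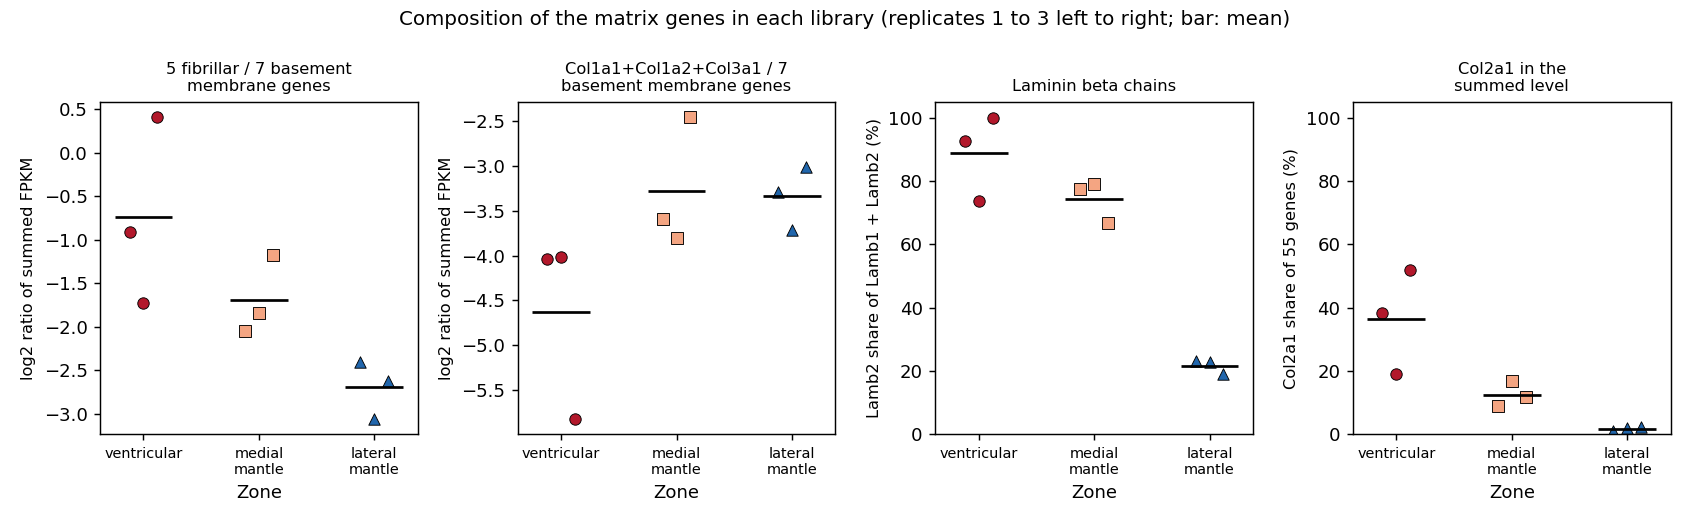
Composition of the matrix genes in each library, by zone from VZ to lMZ, with replicates 1 to 3 from left to right and bars at the mean. From left to right the panels show the log2 ratio of 5 fibrillar to 7 basement membrane genes, the same ratio for Col1a1, Col1a2 and Col3a1 alone, the share of Lamb2 in the 2 main laminin beta chains (%) and the share of Col2a1 in the summed level of all 55 genes (%). The Lamb2 share averaged 88.8% in the VZ, 74.4% in the mMZ and 21.6% in the lMZ.

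The remaining genes were low. Of the 7 collagen VI and VII genes, 1 was tested, Col7a1, which anchors basement membranes in skin and had 1.36, 1.76 and 2.76 FPKM in the VZ, 1.18, 1.83 and 0 FPKM in the mMZ and 1.84, 2 and 1.61 FPKM in the lMZ. Collagen VI, a microfibril of connective tissue, was represented by 6 genes, all untested. In Col6a4 and Col6a5, named here after their values were seen, all lMZ libraries lay above all others. Col6a4 had 0.067, 0.351 and 0 FPKM in the VZ, 0.149, 0.313 and 0 FPKM in the mMZ and 1.56, 1.66 and 0.872 FPKM in the lMZ. Col6a5 had 0.56, 0.634 and 0.319 FPKM in the lMZ and at most 0.153 FPKM elsewhere. The 3 network collagens Col8a1, Col8a2 and Col10a1 reached at most 0.136 FPKM. Col27a1, Col16a1 and Col20a1 were tested and passed no threshold.

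Genes that make, bind and cut collagen and laminin were read from lists of other genes, against the 10.7% of all tested genes that were higher and the 8.93% that were lower in VZ than lMZ. For mMZ against lMZ these shares were 3.58% and 0.543%. Of 27 genes for collagen synthesis, 19 were tested, 7 were higher in VZ than lMZ and 0 were lower, with a median difference of 0.65. They were the chaperone Serpinh1, the hydroxylases P4ha1, P4ha3, Plod1 and Plod2 and the crosslinking enzymes Loxl2 and Loxl3. Serpinh1 had 44.3, 44.6 and 78.2 FPKM in the VZ, 44, 42.7 and 47.2 FPKM in the mMZ and 16.2, 7.07 and 17.6 FPKM in the lMZ. VZ and mMZ overlapped and both lay above the lMZ, by 2.0 ± 0.33 and 1.73 ± 0.33 (SE, adjusted p = 0.0047 and 0.0197). Serpinh1 was the only one of the 19 that was higher in mMZ than lMZ.

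Of 12 tested non-collagen, non-laminin basement membrane genes, 3 were higher in VZ than lMZ (10.7% of all tested genes) and 0 were lower (8.93%). The 3 were the collagen-binding Sparc, the netrin Ntn4 and Frem2. Sparc averaged 65.9 ± 14.4 FPKM in the VZ, 57.7 ± 23.8 in the mMZ and 23 ± 11.3 in the lMZ (SD, n = 3 each). Of 11 tested genes on the list of receptors, 4 were higher in VZ than lMZ (Ddr1, Itgb1, Rpsa and Sdc1) and 1 was lower (Itga3). Of all tested genes 10.7% and 8.93% were so. The difference of Rpsa was small, at 0.51 ± 0.15 (SE, adjusted p = 0.0397). Ddr1, a tyrosine kinase that binds collagen, averaged 124 ± 32 FPKM in the VZ, 114 ± 6.82 in the mMZ and 35.8 ± 10.2 in the lMZ, and it was also higher in mMZ than lMZ (1.68 ± 0.24 SE, adjusted p = 0.00547). Of 9 tested proteases and inhibitors, 1 was higher (10.7% of all tested genes, a near share) and 2 lower (8.93%) in VZ than lMZ. The membrane protease Mmp14 was higher in VZ than lMZ, by 2.27 ± 0.35 (SE, adjusted p = 0.00336), and Mmp24 and Timp2 were lower. Of 8 tested genes of other connective tissue matrix, Fn1, Fbln1 and Fbln2 were higher in VZ than lMZ (10.7% of all tested genes) and 0 were lower (8.93%). The fibronectin gene Fn1 averaged 20.1 ± 3.22 FPKM in the VZ, 10.4 ± 3.4 in the mMZ and 3.75 ± 1.81 in the lMZ. Of 10 tested pericyte markers, 1 was higher in VZ than lMZ, a share near that of all genes, and their median difference was -0.04. That gene, Notch3, averaged 35.4 ± 10.6 FPKM in the VZ, 20.3 ± 1.46 in the mMZ and 2.38 ± 0.428 in the lMZ (SD, n = 3 each), and made up much of the list's sum in the VZ. The list summed to 61.3 to 73.1 FPKM in the VZ, 48.2 to 64.1 FPKM in the mMZ and 12.3 to 26 FPKM in the lMZ. The part of pericytes in the laminin and collagen levels was not tested.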

How the data were processed

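RNA-seq libraries of 3 zones of the CD-1 mouse hypothalamus at E12.5 were compared, 3 libraries each, grouped by the labels. The authors deposited FPKM values per gene and library. Per the submitters' processing notes, Bowtie2 2.1.0 and the mm10 genome were used, and these sources do not name the program that estimated FPKM. Of 38370 rows, 42 duplicates and 133 others that repeated a symbol were dropped, none of a collagen or laminin gene, leaving 38195 symbols.

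FPKM values are not counts, so limma 3.58.1 (R 4.3.3) was fitted to log2(FPKM + 1), with 1 mean per zone over all 9 libraries, an intensity trend, two-sided tests and Benjamini-Hochberg adjustment within each comparison over the 14004 genes at 1 FPKM or more in at least 3 libraries. The pseudocount of 1 understates changes of low genes. Sums, shares and ratios over genes were described without a test. Genes at 0 are given library by library. Not every single gene is reported here. Genes named with values averaged at least 5 FPKM in a zone or passed the threshold in a comparison. Other members with values belong to the summed sets, are the tested members of a class, or are said to be named after their values were seen. Of each list of other genes, examples were taken by mean level among those past the threshold, or among all where none passed. Other genes of these lists that are named are given without library values.

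Depth was estimated from the spacing of low values: 59.3% to 65.4% of low values lay within 0.1 of a whole number of steps of 1 fragment, so depth is approximate, and no counting interval was computed. Coordinates are gene spans of GENCODE M21 on GRCm38 (mm10). Promoters are from RefSeq on GRCm38.p6. The fit was also run on simulated data. That outcome is not given here, and no statement above rests on it. The genes, lists and tests were chosen with earlier results of these data known. The alternatives changed the filter or the pseudocount, scaled by quantiles or by a trimmed mean of log ratios, dropped the trend, weighted the libraries, fitted only the zones compared, added a replicate block, summed repeated symbols, left out libraries, or used 2 other definitions of the fibrillar and basement membrane sums that were added after seeing the data.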

Additional observations from a re-analysis of the deposited data

How the results depend on the processing

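No named difference past the threshold changed sign under an alternative. Of the named differences under the alternatives 1037 kept their side of the threshold, 51 lost it and 40 gained it. Counts moved more. Array weights, which down-weight noisy libraries, gave 2761 genes for VZ minus mMZ (0 in the fit reported), 6800 for VZ minus lMZ (2750) and 3700 for mMZ minus lMZ (577). They also gave 7 collagen and laminin genes higher (5.56% of all tested genes) and 1 lower (14.2%) for VZ minus mMZ. For VZ minus lMZ 5 were lower (23.9%), and for mMZ minus lMZ 4 were lower (8.8%). Fitting only the zones compared gave 1684 and 2027 genes in the last 2 comparisons, with 1 and 3 matrix genes lower (4.63% and 5.29% of all tested genes). Leaving out both shallow libraries gave 3933 genes for VZ minus lMZ, and 1666 genes and 3 matrix genes lower (2.61% of all tested genes) for mMZ minus lMZ. Quantile normalization gave 9 genes for VZ minus mMZ and 2 matrix genes lower for mMZ minus lMZ (1.89% of all tested genes). Trimmed mean scaling, no trend and the replicate block each gave 2 lower there (0.835%, 0.736% and 0.764% of all tested genes), against 1 in the fit reported (0.543%). Pseudocounts of 0.1 and 0.5 gave 0 (0.179% and 0.378%). A pseudocount of 0.1 and a filter of 6 libraries each left 1 matrix gene lower for VZ minus lMZ (2 in the fit reported), beside 6.11% and 9.11% of all tested genes (8.93% in the fit reported). Without a filter 3 were higher for mMZ minus lMZ (6 in the fit reported), beside 1.51% of all tested genes (3.58% in the fit reported). Of genes called between VZ and lMZ, 54.5% were higher, against 49.5% after quantile normalization and 47.4% after trimmed mean scaling. Between mMZ and lMZ these shares were 86.8%, 66.6% and 79.5%. The cause of these shifts was not tested.

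Leaving out 1 library at a time gave 0 to 571 genes for VZ minus mMZ, 959 to 3958 for VZ minus lMZ and 207 to 1760 for mMZ minus lMZ. Matrix genes called higher numbered 0 to 3, 9 to 11 and 1 to 8 in that order, beside 0% to 0.707%, 4.68% to 14% and 1.35% to 9.48% of all tested genes. Those called lower numbered 0, 0 to 3 and 0 to 3, beside 0% to 3.37%, 2.01% to 14.3% and 0.0928% to 3.08%. The mean log2 ratio of fibrillar to basement membrane genes ran from -1.31 to -0.25 in the VZ, -1.95 to -1.51 in the mMZ and -2.84 to -2.51 in the lMZ. With whole classes it was 0.89, -0.49 and -0.50, with Col1a1, Col1a2 and Col3a1 alone -4.63, -3.28 and -3.34, and as a difference of medians of log2 values -1.40, -1.06 and -0.84. Without Lamb2 it was 0.02, -1.47 and -2.67. The VZ had the highest ratio in each of these versions except the medians and Col1a1, Col1a2 and Col3a1 alone, in which it had the lowest.

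Same-numbered libraries did not deviate together throughout: their correlations ran from -0.10 to 0.25, and VZ and lMZ replicates 1 had the lowest. With the number as a replicate block, 2901 genes were called for VZ minus lMZ, 703 for mMZ minus lMZ and 0 for VZ minus mMZ, and Col9a2 joined the genes lower in mMZ than lMZ (adjusted p = 0.0406). The shallow VZ replicate 3 and mMZ replicate 3 limit what low genes can show.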
